A study of Homo sapiens with 4 samples.

Results

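Elements whose repeat family name begins with MER were followed in single-cell RNA-seq of a pair of human cancer lines, H1299 from non-small cell lung cancer and HCT116 from colorectal cancer. The members are all rows of the deposited transposable element (TE) table with such a family name, which gave 10045 of its 275000 features. They comprised 9157 of 261609 loci (single genomic copies, each under a number), 283 of 1383 classes (a family name joined with a position number) and 134 of 655 families. The libraries were made with the 5′ chemistry of 10x Genomics, which reads polyadenylated RNA from the 5′ end. Each line was grown in DMSO, the solvent, or in DAC together with SB939, and each of these 4 combinations was 1 library without a replicate. DAC (decitabine) inhibits DNA methyltransferases and was present for 72 h at 500 nM. SB939 inhibits histone deacetylases and was present for 18 h at 500 nM. Compounds and medium were replaced every 24 h in cells of passage 5 to 10. The treated libraries are called DAC+SB and the DMSO libraries are also called controls. The effect of either compound alone was not analysed here.

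MER stands for medium reiterated repeat, a naming scheme for moderately repeated sequences that was begun before their origins were known. The names therefore join unrelated elements. Some are long terminal repeats (LTRs) of endogenous retroviruses of the classes ERV1, ERVL and ERVK, and an LTR carries the promoter of its provirus and can start transcription of neighbouring DNA. Others are DNA transposons, most of them short copies without a transposase gene that moved by cut and paste. LTR promoters in human cells are commonly silenced by DNA methylation and by repressive chromatin. By name stem, 71 of the 134 families were ERV1, 15 ERVL, 7 ERVK and 40 DNA transposons, and 1 was left unassigned.

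The libraries held 3578 to 4327 cells and 38927267 to 64524196 gene and TE counts, and the HCT116 DAC+SB library was the shallowest, with a median of 8449 counts per cell against 15784.5 to 17369.5 in the other libraries. It also had the most cells above 25% mitochondrial counts, 1086 of 4327, against 364 of 3658 in HCT116 DMSO and 88 and 91 in the H1299 libraries. Any pair of libraries shared 18 to 30 cell barcodes. The summed level of 5 H1299 markers was 2528 and 1200 CPM (counts per 1000000 gene and TE counts of the library) in H1299 and 87.4 and 296 CPM in HCT116, and that of 8 HCT116 markers was 0.418 and 19.4 CPM in H1299 and 199.5 and 97.1 CPM in HCT116, DMSO first. Not every single marker followed its list. SNAI2 of the H1299 list had more counts in HCT116 (179 and 406) than in H1299 (6 and 34), ESRP1 of the HCT116 list was at 2.92 CPM in treated H1299 and 2.41 CPM in treated HCT116 cells, and ZEB1 of the H1299 list at 14.4 and 14.1 CPM in these.

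MER-named elements made up a small part of the transcripts and were higher in both treated libraries. They had 15350 counts (238 CPM) in H1299 DMSO and 31267 counts (501 CPM) in H1299 DAC+SB. In HCT116 they had 14909 counts (238 CPM) with DMSO and 33115 counts (851 CPM) with DAC+SB. The DMSO levels of the lines were thus alike, and the treated level was the higher one in HCT116. As a share of all TE counts MER names went the other way, from 12.0% to 1.62% in H1299 and from 7.46% to 1.53% in HCT116, while LTR12 names went from 202 to 20496 CPM in H1299 and from 534 to 32071 CPM in HCT116.

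Ratios were taken over shared classes, those that the control and the treated library of a line both list, since the lowest listed MER class of a library had 20 or 21 counts and the value of an unlisted class is unknown. In H1299, 63 classes of 50 families met this and held 86% of the DMSO and 60.5% of the DAC+SB counts of MER names. In HCT116, 61 classes of 49 families held 85.4% and 67.7%. Over them, the level was 205 CPM with DMSO and 303 CPM with DAC+SB in H1299, giving a log2 ratio of 0.57 (0.54 to 0.60) or 1.48-fold. In HCT116 it was 203 and 576 CPM, giving a log2 ratio of 1.50 (1.47 to 1.53) or 2.83-fold. The intervals here and below are exact 95% intervals for counting error only. No test was run on these groups of 1 library each, and the spread between cultures is unknown.

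The retroviral and the transposon names within MER differed. ERV1 names stood at 110 and 201 CPM in H1299, DMSO first, giving a log2 ratio of 0.87 (0.83 to 0.91), and at 97.9 and 420 CPM in HCT116, giving a log2 ratio of 2.10 (2.06 to 2.14). DNA transposon names stood at 85.4 and 89.2 CPM in H1299, giving a log2 ratio of 0.06 (0.01 to 0.12), and at 98.4 and 141 CPM in HCT116, giving a log2 ratio of 0.52 (0.46 to 0.57). The groups thus had like levels in HCT116 DMSO, while ERV1 names were already higher in H1299 DMSO. They were further apart in both treated libraries. Over all listed classes, ERV1 names held 54.3% of the MER counts in the H1299 control and 71.0% after treatment. In HCT116 they held 46.3% and 68.6%. The smaller ERVL group had log2 ratios of 0.61 (0.44 to 0.79) and 1.06 (0.87 to 1.25) in H1299 and HCT116. Its H1299 value rests on 1 family, MER73, which had 39 and 279 of the 463 and 686 counts. The median ERVL class log2 ratio was 0.12 in H1299, with 3 classes above 0 and 3 below, and 0.99 in HCT116. The ERVK group, with 46 to 109 counts per library, had 0.02 (-0.38 to 0.42) and 1.50 (0.96 to 2.06).

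**Figure D1:**
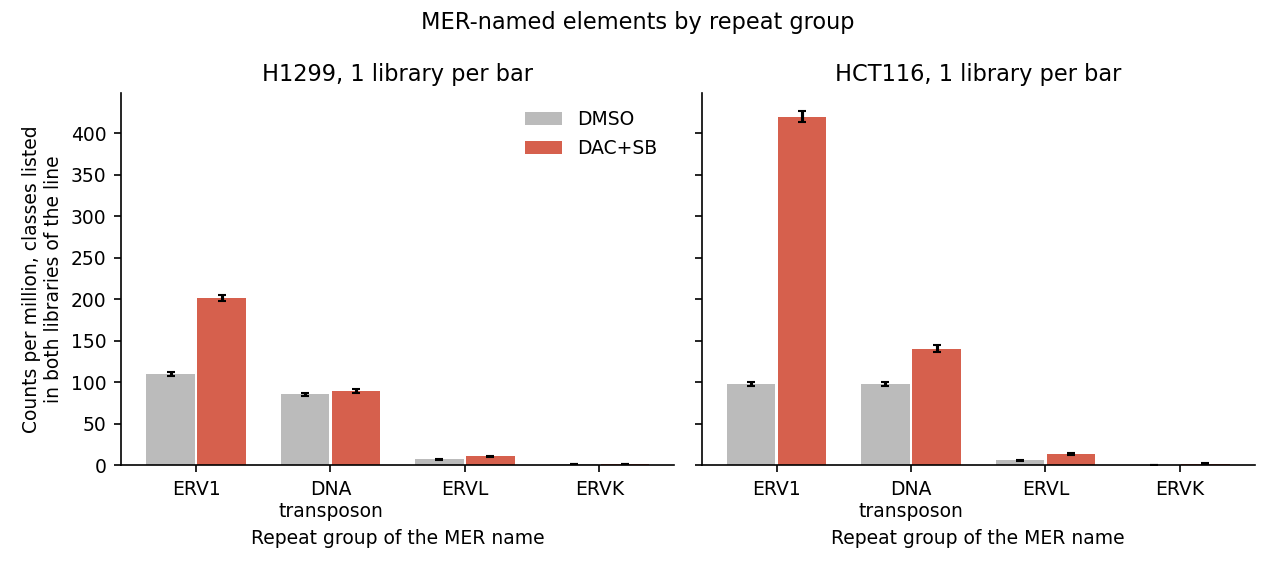
Level of MER-named elements by repeat group, in CPM over the classes listed in both libraries of the line; each bar is 1 library and the error bars are exact 95% Poisson intervals. The tallest bar is ERV1 in HCT116 DAC+SB at 420 CPM, and the DNA transposon bars of H1299 stand at 85.4 and 89.2 CPM.

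Names ending in -int mark the internal, protein-coding part of a provirus rather than its LTR. Over shared classes the log2 ratio of these internal names was 0.06 (-0.13 to 0.26) in H1299, where the MER LTR names without -int had 0.88 (0.84 to 0.92). In HCT116 the internal names had 1.51 (1.34 to 1.69) and the LTR names 2.08 (2.04 to 2.13). Over the summed counts the LTR names thus had the higher ratio in both lines, but the median class ratio in HCT116 was alike, 1.42 over 10 internal and 1.41 over 38 LTR classes, against 0.11 over 10 and 0.43 over 37 in H1299. In level the LTR names were higher, with 113 and 207 CPM in H1299 against 6.51 and 6.81 CPM of internal names, DMSO first.

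MER names had lower ratios than the LTR names best known to respond to such inhibitors. LTR12 names, solo LTRs of the HERV-9 group, had log2 ratios of 6.67 in H1299 and 5.90 in HCT116. THE1 names, LTR retrotransposons related to ERVL, had 4.54 and 4.22, and the related MST and MLT names 1.80 and 2.49. The remaining LTR and HERV names, at 0.88 and 1.91, were the nearest to MER ERV1 names. Tigger and Charlie names, DNA transposons to which several MER transposon families are related, had 0.00 (-0.08 to 0.09) and 0.79 (0.70 to 0.88), against 0.06 and 0.52 for the MER transposon names.

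MER families and classes past a 4-fold ratio were counted beside the background of all TE names. Among families that reached 100 counts in at least 1 library of the line, 3 of 25 MER families in H1299 were at least 4-fold higher over shared classes, against 17.4% of 144 TE families, and 9 of 30 in HCT116, against 36.9% of 157. By class it was 4 of 29 in H1299, against 16.2% of 173 TE classes, and 10 of 32 in HCT116, against 39% of 187. No MER class or family was at least 4-fold lower in either line, where the background was 0% in H1299 and, in HCT116, 0.535% of classes and 0% of families. A class not listed with DAC+SB could not enter this count. An example is position 5 of MER5A1, with 648 counts in HCT116 DMSO. The median family log2 ratio was 0.19 for MER and 0.20 for all TE names in H1299, and 1.44 and 1.38 in HCT116. The MER shares past 4-fold higher were somewhat below the background in both lines, but rest on few features, so no difference is read from them. At 2-fold they were below it too, except for HCT116 families, at 70% against 62.4%. In H1299 the order at 4-fold turned when each feature's leading locus was left out. Then 10 of 17 MER classes were past 4-fold against 32.5% of 117 TE classes, and 7 of 14 families against 33.3% of 96. The minimum of 100 counts was applied again after this step, which left 14 of the 25 MER families. All 7 families past 4-fold reached it only with DAC+SB, such as MER48 with 12 and 507 counts left. The filter thus favours families higher with DAC+SB, and no conclusion is drawn from the turn. By repeat group, the families past 4-fold were 2 of 14 ERV1, 1 of 2 ERVL and 0 of 9 DNA transposon families in H1299, and 9 of 21 ERV1, 0 of 2 ERVL and 0 of 7 DNA transposon families in HCT116.

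**Figure D2:**
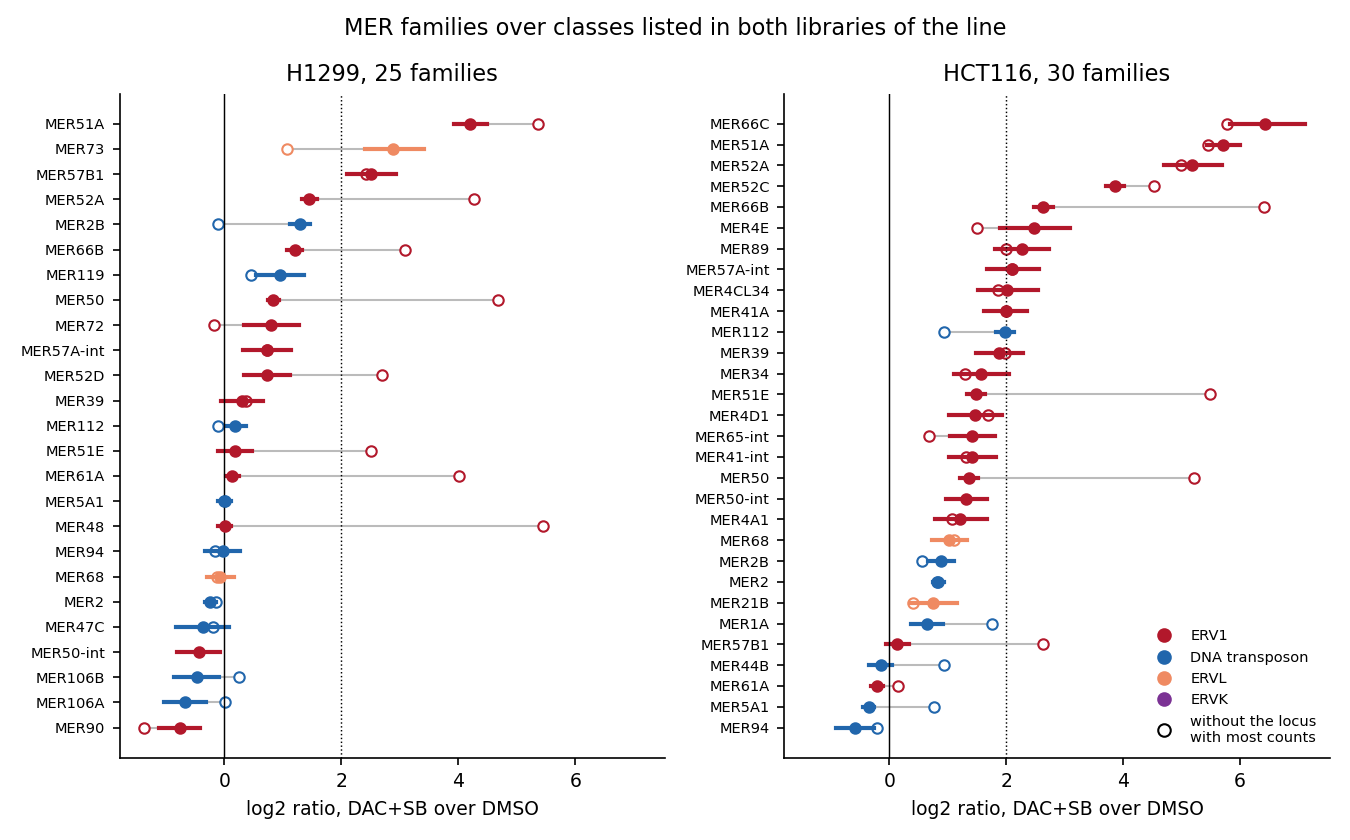
log2 ratio of DAC+SB over DMSO for each MER family that reached 100 counts in a library of the line, over classes listed in both libraries of the line; filled points with bars are the ratio and its exact 95% interval for counting error, open points the ratio without the family's locus with most counts, and the dotted line marks 4-fold. MER66C leads in HCT116 at 6.43, and MER48 in H1299 goes from 0.01 to 5.45 when 1 locus is left out.

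MER66C, an ERV1 LTR, had the highest family ratio among MER names in HCT116. It was not listed in H1299 DMSO, had 286 counts (4.58 CPM) in H1299 DAC+SB, 22 counts (0.351 CPM) in HCT116 DMSO and 1341 counts (34.4 CPM) in HCT116 DAC+SB. The treated HCT116 library was high, the treated H1299 library lower, and the HCT116 DMSO library close to the listing minimum. Its shared class, position 19, had 22 and 1178 counts in HCT116, giving a log2 ratio of 6.43 (5.82 to 7.11) or 86.2-fold. The other class, position 20, was listed only in the treated libraries, with 29 counts in H1299 and 163 in HCT116.

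More than 1 copy of MER66C was counted, but 1 copy carried most of the HCT116 signal. Counts came from 103 loci in HCT116 DAC+SB, 12 in HCT116 DMSO and 47 in H1299 DAC+SB. Locus 548667 had 48 counts in treated H1299 cells, 5 in the HCT116 control and 705 in treated HCT116 cells, which is 52.6% of the family in the last library. Locus 2231590 had 6 counts in H1299 DAC+SB and 90 in HCT116 DAC+SB, locus 5004336 had 24 and 54, locus 2509083 had 33 and 51, and locus 1548506 had 10 and 29. None of these 4 loci had a count in HCT116 DMSO. Together with locus 548667 the top 5 loci held 69.3% of the family in HCT116 DAC+SB, and in H1299 DAC+SB the top locus held 16.8%. Without locus 548667 the HCT116 log2 ratio was 5.77.

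**Figure D3:**
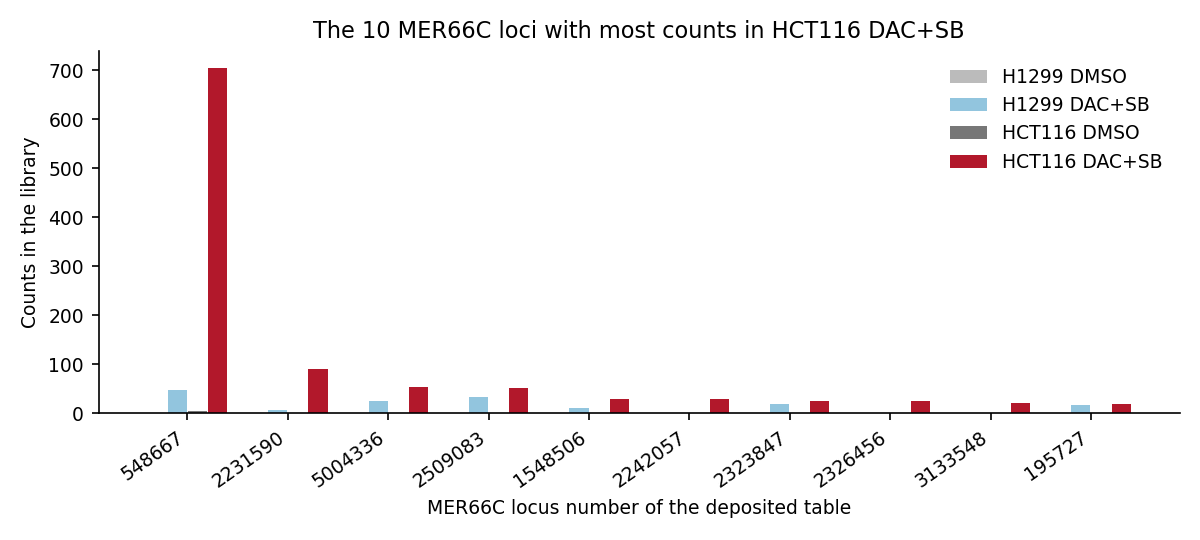
Counts of the 10 MER66C loci with most counts in HCT116 DAC+SB, by locus number and library, 1 bar per library. Locus 548667 has 705 counts in HCT116 DAC+SB and the next locus 90; the HCT116 DMSO bars reach at most 5 counts.

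The other MER66 names are LTRs of the same name group. MER66A had 57 counts in H1299 DAC+SB and 323 in HCT116 DAC+SB, MER66D had 27 and 192, and neither was listed with DMSO in either line. MER66B was the largest, with 707 and 3061 counts (11.0 and 49.0 CPM) in H1299 and 426 and 2820 counts (6.80 and 72.4 CPM) in HCT116, DMSO first. Over shared classes its log2 ratio was 1.21 (1.08 to 1.34) in H1299 and 2.64 (2.48 to 2.79) in HCT116.

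MER66B was read from a different copy in each line with DMSO. Locus 2726405 had 663 counts in the H1299 control and 1217 after treatment, but 0 and 25 counts in HCT116. Locus 1419249 showed the opposite, with 0 and 84 counts in H1299 and 406 and 596 in HCT116. Each line thus had a copy active in DMSO that had no count in the other line's DMSO library, although its main class, position 15, was listed there. Another copy, locus 5785501, had 1446 counts in H1299 DAC+SB and 1092 in HCT116 DAC+SB. It belongs to position 16, a class that neither DMSO library lists, so no ratio was taken. Without the leading locus of the shared classes, the family's log2 ratio was 3.08 in H1299 and 6.40 in HCT116.

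MER51A, another ERV1 LTR, was the only family among the 3 highest ratios in both lines. Its shared class had 114 and 2031 counts in H1299 (1.77 and 32.5 CPM), giving a log2 ratio of 4.20 (3.93 to 4.49), and 110 and 3586 counts in HCT116 (1.76 and 92.1 CPM), giving a log2 ratio of 5.71 (5.44 to 6.0). Its leading copies differed between the treated lines. Locus 5363659 had 80 and 682 counts in H1299 and 53 and 114 in HCT116. Locus 2402143 had 43 counts in H1299 DAC+SB and 588 in HCT116 DAC+SB, and locus 1388285 had 50 and 503, with no count of either locus with DMSO. MER51C was listed only with DAC+SB in both lines, with 250 and 334 counts.

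MER52A and MER52C are ERV1 LTRs as well. Over shared classes MER52A had 710 and 1882 counts in H1299, giving a log2 ratio of 1.45 (1.33 to 1.58), and 36 and 807 counts in HCT116, giving a log2 ratio of 5.17 (4.69 to 5.70). In H1299, 669 of those 710 DMSO counts came from locus 4809645, which had 1120 in the shared class with DAC+SB, and without it the log2 ratio was 4.26. The same locus had no count in HCT116 DMSO and 98 in the shared class of HCT116 DAC+SB. MER52C was not listed in H1299 DMSO and had 2137 counts in H1299 DAC+SB. In HCT116 its shared classes had 372 and 3358 counts, giving a log2 ratio of 3.86 (3.71 to 4.02). Locus 3514360 led it in both treated libraries, with 877 counts in H1299 and 1125 in HCT116, and already had 216 in HCT116 DMSO.

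In a further set of ERV1 families, a single copy held most of the counts with DMSO, and the remaining copies were far higher with DAC+SB. MER48 had 1362 and 1325 counts over shared classes in H1299, giving a log2 ratio of 0.01 (-0.10 to 0.12), of which locus 4302933 had 1350 and 818. The other MER48 loci had 12 and 507 counts, and without locus 4302933 the log2 ratio was 5.45. MER50 had 1338 and 2313 counts in H1299, giving a log2 ratio of 0.84 (0.74 to 0.94), and 578 and 921 in HCT116, giving a log2 ratio of 1.36 (1.21 to 1.51). Locus 1170566 held 1315 and 1746 of these in H1299 and 563 and 577 in HCT116, and without it the log2 ratio was 4.67 and 5.21. MER51E had 551 and 955 counts in HCT116, giving a log2 ratio of 1.48 (1.33 to 1.63), and 5.48 without locus 5578925, which had 539 and 622.

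In MER61A, an ERV1 LTR, single copies differed in both directions. The family had 1270 and 1352 counts in H1299, giving a log2 ratio of 0.14 (0.03 to 0.25), and 2250 and 1208 in HCT116, giving a log2 ratio of -0.21 (-0.31 to -0.11). Locus 6074332 was lower in both treated libraries, with 1217 and 520 counts in H1299 and 782 and 192 in HCT116. Locus 680615, counted mainly in HCT116, had 603 and 96 counts there, and locus 3970003 had 349 and 67. Locus 5286308 was higher, with 7 and 399 counts in H1299 and 40 and 284 in HCT116. The number of MER61A loci with a count was 19 and 85 in H1299 and 29 and 88 in HCT116. Without locus 6074332 the log2 ratio was 4.02 in H1299 and 0.16 in HCT116.

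MER57B1, an ERV1 LTR, had 58 and 319 counts in H1299, giving a log2 ratio of 2.51 (2.10 to 2.94), but 556 and 381 in HCT116, giving a log2 ratio of 0.14 (-0.05 to 0.33). Locus 6203622 led it in both, with 27 and 159 counts over shared classes in H1299 and 517 and 231 in HCT116, and without it the log2 ratio was 2.42 and 2.63. The HCT116 family value thus turned on 1 copy that was active with DMSO. Among families that reached 100 counts, the highest 8 of HCT116 also held the ERV1 names MER4E with 32 and 110 counts (log2 ratio 2.47, 1.89 to 3.08, but 1.50 without its leading locus 694748 and 3.39 over all listed classes), MER89 with 53 and 158 (2.26, 1.80 to 2.74) and MER57A-int with 61 and 163 (2.10, 1.67 to 2.55). At the low end of such families, the ERV1 names MER90 and MER50-int had log2 ratios of -0.77 (-1.12 to -0.42) and -0.44 (-0.80 to -0.08) in H1299, with 188 and 107 counts and with 157 and 112. All MER50-int counts came from 1 locus, 1288677.

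Among ERVL names, MER73 had the highest ratio. It had 39 counts in the H1299 control, 854 in treated H1299 cells and 483 in treated HCT116 cells, and the HCT116 control did not list it. In its shared H1299 class it had 39 and 279 counts, giving a log2 ratio of 2.89 (2.40 to 3.41). Locus 5218182 had 0 and 200 of these, which is at least 68.9-fold higher against a floor of 3 counts, and without it the log2 ratio was 1.07. Over all its classes that locus had 765 counts in H1299 DAC+SB and 461 in HCT116 DAC+SB, so most of the family came from 1 copy in both treated libraries. MER70B, also ERVL, was listed only in H1299 DAC+SB, with 324 counts.

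The DNA transposon names differed from copy to copy. MER2, a Tigger-related transposon and the family with most counts in H1299 DMSO, had 2170 and 1775 counts (33.6 and 28.4 CPM) in H1299, giving a log2 ratio of -0.24 (-0.33 to -0.15). In HCT116 it had 1625 and 1806 counts (25.9 and 46.4 CPM), giving a log2 ratio of 0.84 (0.74 to 0.94). Its counts were spread over 485 and 453 loci in H1299 and 401 and 444 in HCT116, and leaving out the leading locus gave -0.15 and 0.82. MER5A1, a hAT-type transposon, had 1409 and 1371 counts in H1299, giving a log2 ratio of 0.01 (-0.10 to 0.12), and 2425 and 1179 over its shared class in HCT116, giving a log2 ratio of -0.35 (-0.46 to -0.25). Locus 1038417 held 964 and 942 of these in H1299 and 2136 and 874 in HCT116, and without it the HCT116 log2 ratio was 0.76. Position 5 of MER5A1 had 648 counts in HCT116 DMSO and was not listed with DAC+SB. Over all listed classes the HCT116 log2 ratio was -0.70.

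Single transposon copies stood out against their families. In MER2B, locus 1187178 had 1 and 557 counts in the shared class of H1299 and 5 in HCT116 DAC+SB. The family's H1299 log2 ratio was 1.29 (1.11 to 1.47) with this copy and -0.11 without it. In MER112, locus 1024110 had 1 and 106 counts in H1299 and 0 and 617 in HCT116, at least 331-fold higher in HCT116 against the floor of 3 counts. The family's log2 ratio was 0.19 (0.01 to 0.36) in H1299, where it was -0.12 without the locus. In HCT116 it was 1.97 (1.82 to 2.13) and 0.94. In MER119, locus 492531 had 68 and 133 counts in the shared H1299 class, where the family's log2 ratio was 0.94 (0.54 to 1.35). The rest had 12 and 16 counts and a log2 ratio of 0.46 (-0.71 to 1.67). This interval holds the family value, so no difference from the other copies is read here.

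Most transposon families among the 4 lowest ratios of each line, of families that reached 100 counts, were no longer below 0 without 1 copy. This did not hold for all transposon families that reached 100 counts. In H1299, 5 of 9 were below 0 with all loci and 6 without the leading locus of each. In HCT116 it was 3 of 7 and 1. MER47C in H1299, with 100 and 75 counts, was at -0.37 and at -0.19 without its leading locus. MER106A and MER106B in H1299 had 178 and 108 counts (log2 ratio -0.67, -1.03 to -0.32) and 140 and 98 counts (-0.47, -0.85 to -0.08). Locus 3323023 of MER106A had 143 and 74 counts and locus 3323021 of MER106B had 113 and 67. Without them the log2 ratios were 0.0058 (-0.72 to 0.73) and 0.25 (-0.55 to 1.05). These wide intervals also hold the family values. In HCT116, MER94 had 267 and 111 counts, giving a log2 ratio of -0.58 (-0.91 to -0.26), and stayed below 0 without its leading locus 3323212, at -0.21 (-0.70 to 0.27). MER44B had 590 and 331 counts, giving a log2 ratio of -0.15 (-0.35 to 0.05). MER44B locus 4743233 had 494 and 217 counts, and the family was at 0.93 without it.

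Many MER families were listed in only 1 library of a line. In H1299, 31 families with 4945 counts were listed only with DAC+SB and 22 families with 1221 counts only with DMSO. In HCT116 there were 51 families with 6107 counts and 9 with 493. Of the families listed in either library these are 28.2% and 20% of 110 in H1299 and 42.5% and 7.50% of 120 in HCT116. Among all TE families, H1299 had 32.1% and 16%, and HCT116 had 42.5% and 6.81%, so MER names were listed in 1 library about as often as other names. In H1299 DAC+SB the 5 with most counts were MER52C, MER70B, MER44B with 321 counts, MER66C and MER51C. In HCT116 DAC+SB they included MER73 with 483 counts, MER51C, the transposons MER45C with 326 and MER20B with 325, and MER66A with 323. With DMSO only, H1299 listed MER21A with 159 counts, MER44C with 158 and MER47A with 132, and HCT116 listed MER119 with 170, MER34B-int with 57 and MER9a1 with 52.

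Some ERV1 families were listed at other position numbers in treated cells. What these numbers mean is not stated in the labels or headers used here. MER50B was listed at position 23 with DMSO, with 151 counts in H1299 and 34 in HCT116, and not at that position with DAC+SB. With DAC+SB it had 524, 517 and 789 counts at positions 17, 18 and 19 in H1299 and 213 at position 19 in HCT116. Locus 5715648 supplied 990 of the H1299 and 163 of the HCT116 counts. A copy counted under both conditions, locus 3647407, had 146 counts at position 23 in H1299 DMSO and 47 at position 19 in H1299 DAC+SB. MER48 had 1292 counts in H1299 DAC+SB and 366 in HCT116 DAC+SB at position 15, which neither DMSO library lists. Locus 5155588 had 599 counts in H1299 DAC+SB over all its positions, 591 of them at position 15. No count of it is listed in H1299 DMSO, where its value at position 15 is unknown.

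Locus by locus, counts of treated cells came both from copies already counted with DMSO and from copies without a DMSO count. Over shared classes, 1863 loci had a count in the H1299 control and 2336 after treatment, of which 806 had a count in both. In HCT116 these were 1737, 2807 and 750 loci. Loci with a DMSO count held 72.4% of the DAC+SB counts in H1299 and 58.2% in HCT116, against 49.4% and 67.6% over all TE loci. MER names were thus above this background in H1299 and below it in HCT116. Of loci with a DAC+SB count, 34.5% in H1299 and 26.7% in HCT116 had a DMSO count, against 28.8% and 18.2% over all TE loci. Of loci with a DMSO count, 43.3% and 43.2% had a DAC+SB count, against 55.2% and 48.0%. Of loci with at least 10 DAC+SB counts, 67 of 190 in H1299 and 125 of 281 in HCT116 had no DMSO count, against 65.4% of 4682 and 60.6% of 12528 over all TE loci. In the other direction, 0 of 128 loci with at least 10 DMSO counts in H1299, and 2 of 114 in HCT116, had no DAC+SB count, against 0.675% and 3.82% over all TE loci.

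The same was counted by repeat group, for loci chosen by their count in 1 of the libraries. Of ERV1 loci with at least 10 DAC+SB counts, 60 of 105 in H1299 and 113 of 195 in HCT116 had no DMSO count. Of DNA transposon loci it was 5 of 74 and 10 of 80. Over all TE loci it was 65.4% and 60.6%. Both groups were thus below this background, the ERV1 loci by little and the transposon loci by far. Choosing loci by a high DAC+SB count favours those higher with DAC+SB, so these counts describe the same difference as the group ratios. Chosen instead by at least 10 DMSO counts, 0 of 33 ERV1 loci in H1299 and 1 of 42 in HCT116 had no DAC+SB count. For DNA transposon loci it was 0 of 85 and 1 of 66, against 0.675% and 3.82% over all TE loci.

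**Figure D4:**
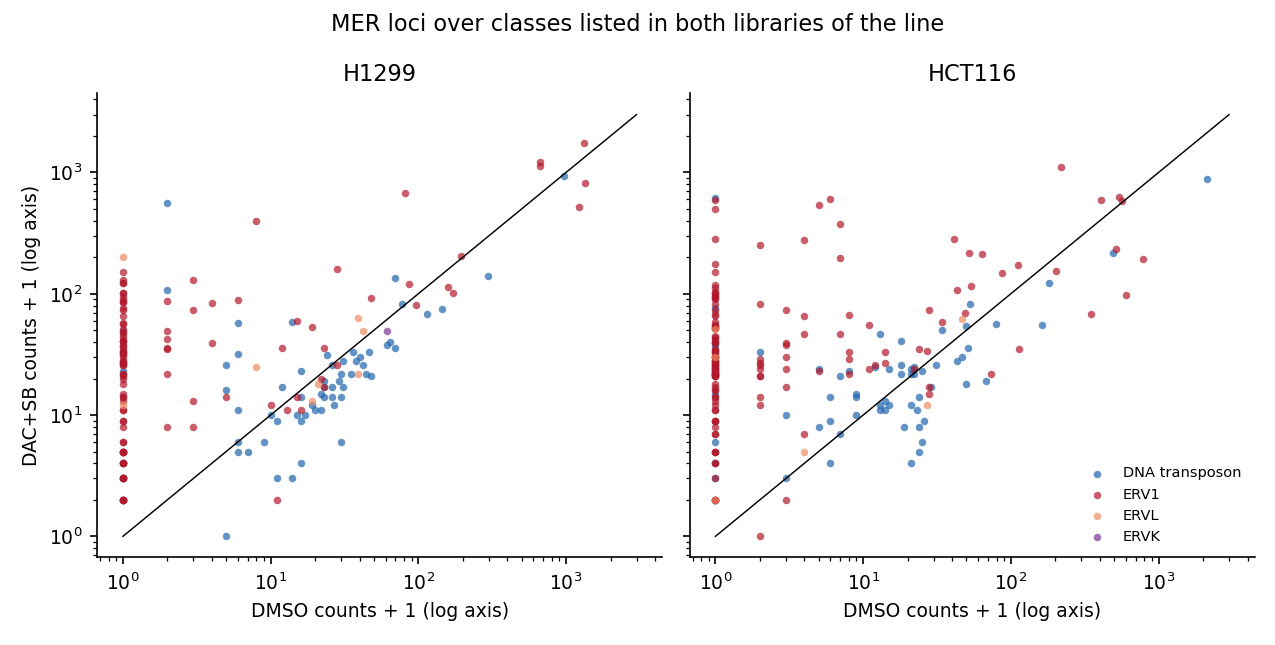
Counts with DMSO against counts with DAC+SB, each plus 1 on a log axis, for MER loci with at least 20 counts in any library, over classes listed in both libraries of the line; each point is 1 locus and the line marks equal counts, not scaled for depth. ERV1 loci fill the left edge, where the DMSO count is 0, and most DNA transposon loci lie near the line.

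More MER loci had a count after treatment, as was the case for all TE loci. With every library thinned to 38927267 counts, 1809 MER loci had a count in the H1299 control and 2561 in treated H1299 cells, and in HCT116 it was 1636 and 4758 loci. Over all TE names it was 14364 and 100457 loci in H1299 and 29923 and 165263 in HCT116. Over MER classes listed in all 4 libraries it was 1208 and 1478 loci in H1299 and 1029 and 2148 in HCT116, so part of the first difference lies in the listed classes. The thinning matched the counts of a library, not its number of cells or the counts per cell. The leading 10 loci held 45.4% and 34.0% of MER counts in H1299 and 48.4% and 22.1% in HCT116, control first, against 18.7% and 11.2% and 22.0% and 10.9% of the counts of all TE names. The leading locus held 8.98% and 5.42%, and 16.9% and 3.40%. The leading 100 loci held 67.1% and 67.8% in H1299, which is nearly the same share, and 71.6% and 56.1% in HCT116. Within the DNA transposon names the leading 10 loci held 31.9% and 35.2% in H1299 and 54.5% and 34.3% in HCT116. The lower share after treatment was thus seen in HCT116 at each of these ranks, and in H1299 for the first 10 loci of all MER names but not for the first 100 or for the first 10 transposon loci. The leading loci with DMSO were locus 4302933 of MER48 in H1299 and locus 1038417 of MER5A1 in HCT116. With DAC+SB they were locus 1170566 of MER50 in H1299 and locus 3514360 of MER52C in HCT116.

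Between the treated lines, most copies with many counts had a count in both. Most copies overall had a count in only 1, but few of them reached 20 counts, and a copy of few counts is easily missed. No conclusion is drawn from that share. Over classes listed in both treated libraries, 2762 loci had a count in H1299 DAC+SB and 3036 in HCT116 DAC+SB, and 1211 had one in both. Of these loci, 238 loci had at least 20 counts in either library, 217 of which had a count in both, 20 had none in H1299 and 1 had none in HCT116. For log2 of the count plus 1 over the 238 loci, Pearson's r between the libraries was 0.17 and Spearman's rho 0.08. These loci were chosen by a high count in either library and share the depth of each. The choice leaves out loci low in both, which by itself lowers such a correlation. The values are thus a description, and no conclusion on the likeness of the lines is drawn from them. Among the 10 leading loci of each treated library, 4 were shared. The sharing of loci between the treated lines was not counted over all TE names. Whether MER loci stand apart in this is therefore unknown. Locus 2402143 of MER51A (43 counts in H1299 and 587 in HCT116) and locus 4809645 of MER52A (1134 and 100) are examples at either side, and locus 5785501 of MER66B (1446 and 1092) was high in both.

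**Figure D5:**
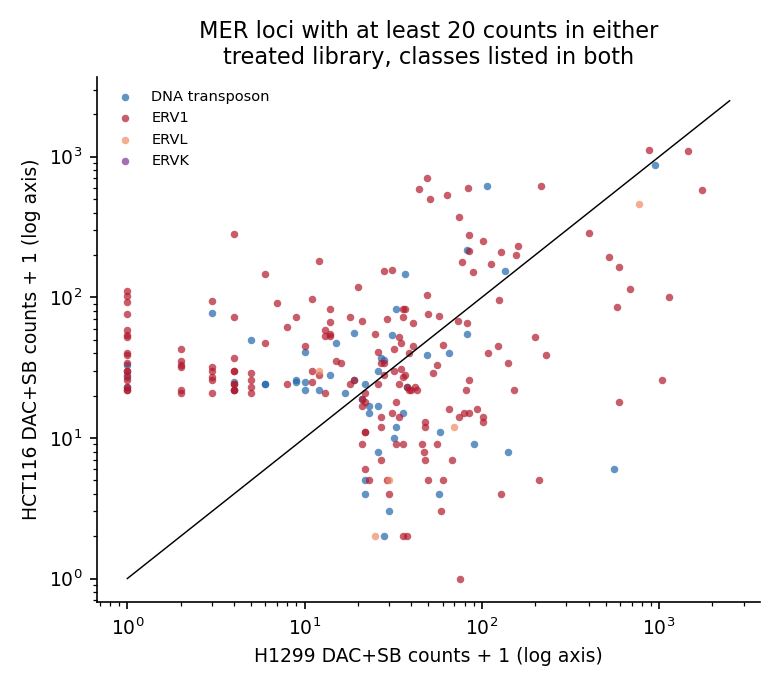
Counts in H1299 DAC+SB against counts in HCT116 DAC+SB, each plus 1 on a log axis, for the 238 MER loci with at least 20 counts in either; each point is 1 locus and the line marks equal counts, not scaled for depth. Points lie on both sides of the line, and 20 loci have no count in H1299 DAC+SB.

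The lines were compared over the 38 MER classes of 32 families listed in all 4 libraries. The log2 ratio was 0.67 in H1299 and 1.25 in HCT116, a difference (H1299 minus HCT116) of -0.58 (-0.63 to -0.53). The difference was -0.63 (-0.69 to -0.56) for ERV1 names and -0.49 (-0.57 to -0.41) for DNA transposon names. The ratio was thus higher in HCT116 in both groups. With 1 library per combination this describes these 4 libraries, and the line and the library cannot be told apart.

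In single cells, MER counts reached more cells in both treated libraries, and in HCT116 they also formed a long tail. With each cell thinned to 3300 counts, which removed 402 cells, all from HCT116 DAC+SB, a MER count was present in 54.5% (52.8 to 56.1) of H1299 DMSO cells and 79.0% (77.6 to 80.3) of H1299 DAC+SB cells. Among HCT116 cells it was present in 53.5% (51.9 to 55.1) of controls and 83.4% (82.2 to 84.5) of treated cells. Without thinning the 4 shares were 95.1%, 99.0%, 93.7% and 95.7%. No cell type that should lack these transcripts was present, so the part of free RNA in these shares was not measured. These shares are over all listed classes, which differ between the libraries. Over shared classes, thinned H1299 cells had a share of 47.6% with DMSO and 62.2% with DAC+SB, and thinned HCT116 cells 46.2% and 72.8%. Over the same classes ERV1 names were counted in 30.4% and 48.1% of thinned H1299 cells and in 26.4% and 63.6% of thinned HCT116 cells. DNA transposon names were counted in 24.0% (22.6 to 25.4) and 25.8% (24.4 to 27.3) of H1299 cells and in 26.6% (25.2 to 28.1) and 29.4% (27.9 to 30.8) of HCT116 cells, or in 69.6% and 68.5% and in 73.8% and 54.2% without thinning.

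Families differed in how many cells they reached. MER51A was counted in 0.587% and 9.13% of thinned H1299 cells and in 0.711% and 24.0% of thinned HCT116 cells. MER66C was counted in 1.29% of H1299 DAC+SB cells, 0.109% of HCT116 DMSO cells and 8.76% of HCT116 DAC+SB cells, or 5.64%, 0.519% and 15.6% without thinning. The H1299 DMSO library does not list it, so no share of cells was taken there. MER2 was counted in 10.7% and 9.63% of thinned H1299 cells and in 7.55% and 11.8% of thinned HCT116 cells.

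The HCT116 tail was in cells of low depth and high mitochondrial share, and the fewer such cells of the other libraries leaned the same way. Thinned cells with at least 5 MER counts were 20 of 3578 in H1299 DMSO, 179 of 3726 in H1299 DAC+SB, 21 of 3658 in HCT116 DMSO and 737 of 3925 in HCT116 DAC+SB, where they held 58.0% of the thinned MER counts. The variance over the mean of thinned MER counts per cell was 1.15, 1.25, 1.18 and 7.33 in that order. In HCT116 DAC+SB those 737 cells had a median of 6414 counts before thinning and 21.4% mitochondrial counts, against 9685.5 and 17.1% in the other cells. For transposon names alone, 133 such cells held 40.8% of the thinned counts, with a median of 4510 counts and 24.7% mitochondrial counts. Cells with at least 5 MER counts also differed from the others elsewhere. In HCT116 DMSO they had 14553 against 16263 counts and 21.2% against 15.7% mitochondrial counts. In H1299 DMSO it was 14645.5 against 17393 and 12.0% against 8.30%. In H1299 DAC+SB it was 14929 against 15836 and 9.98% against 8.82%.

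Cells above 25% mitochondrial counts had a higher MER level in that library but not in the other libraries. HCT116 DAC+SB cells above 25% mitochondrial counts had 1229 CPM of MER names against 782 CPM in the other cells. For ERV1 names it was 755 against 553 CPM, for DNA transposon names 386 against 182 CPM, and for MER66C 29.0 against 35.4 CPM. In HCT116 DMSO the MER level was lower above 25%, at 201 against 242 CPM, and in H1299 DAC+SB it was 442 (405 to 481) against 502 (496 to 508) CPM. In H1299 DMSO, with 91 cells above 25%, the values of 215 (194 to 239) and 239 (235 to 242) CPM overlapped within counting error. DNA transposon names in H1299 DAC+SB stood at 117 (98.8 to 138) and 110 (107 to 113) CPM, which overlapped too. Without cells above 25% the HCT116 log2 ratio was 1.99 for ERV1 names and 0.28 for DNA transposon names, against 2.10 and 0.52 with all cells. Whether RNA quality plays a part in the transposon values of HCT116 was not tested.

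MER levels also went along with LTR12 levels in treated cells. Thinned cells of each library were split into 4 equal groups by their LTR12 counts. In the lowest and the highest of these, ERV1 names stood at 281 and 469 CPM in H1299 DAC+SB and at 403 and 977 CPM in HCT116 DAC+SB. DNA transposon names stood at 108 and 135 CPM in H1299 DAC+SB and at 204 and 204 CPM in HCT116 DAC+SB, with 313 and 295 CPM in the groups between. In the DMSO libraries the median LTR12 count was 0, 0, 1 and 2 in the 4 groups of H1299 and 0, 0, 1 and 4 in those of HCT116, so these groups hardly differ in LTR12 and were not compared. ERV1 names thus went with LTR12 across treated cells of both lines. In H1299 the transposon names were also higher in the highest group, with intervals of 97.1 to 121 and 123 to 149 CPM. In HCT116 they were not. LTR12 names of HCT116 DAC+SB were also higher in cells above 25% mitochondrial counts, at 36982 against 31183 CPM. In H1299 DAC+SB they were at 19972 against 20507 CPM. Whether RNA quality plays a part here was not tested.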

How the data were processed

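The data deposited by the authors are raw counts per cell, in a table of genes and a table of TE features (family, position number, locus number), with zeros left out. CASAVA, STAR, GRCh38 and hg38 are named, without a role, per the submitters' processing notes. Whether these are UMI counts, and how classes were made and filtered: not given in the sources used here. TE loci carry no coordinates here, so none was placed in the genome and no sequence is shown. Cells were assigned to libraries by the library name in each cell name, and all 15289 were used, with no doublet caller. Counts were summed per library and scaled to CPM of gene and TE counts. Features were called past the fold from 4-fold where either library of the line reached 100 counts. A locus at 0 was set to 3 counts for a bound. Intervals are exact (Poisson, Clopper-Pearson for shares, conditional binomial for ratios) at 95%, except the difference between lines (normal approximation), and cover counting error only. Values per cell were compared after a hypergeometric draw to 3300 counts.

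Repeat groups were assigned by name stem from general knowledge. Families named are MER66C, those with most counts per library, the 8 highest and 4 lowest ratios per line among families that reached 100 counts in a library of the line, and those with most counts among families listed in 1 library, with the leading loci of libraries and families. MER66D, the family values of MER50B and MER51E, and loci 3647407 and 5155588 are outside this rule and were chosen after their values were seen. The HCT116 marker list held 1 further gene, which is not reported here and was left out of its sum. Members and lists were chosen with earlier results of these data known. Alternatives changed the denominator, the cells, the classes, the loci, the fold and the count minimum. Ratios and intervals were tested on simulated Poisson counts, the spread that the intervals assume, so this checks the calculation only. Python 3.11.15 with numpy 2.4.6, scipy 1.17.1, pandas 2.3.3 and matplotlib 3.10.9 was used.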

Additional observations from a re-analysis of the deposited data

Results flagged for a closer look

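In 3 MER families the log2 ratio of DAC+SB over DMSO had opposite signs in the lines, with intervals for counting error that excluded 0 in both. MER2, a DNA transposon, was at -0.24 in H1299 and 0.84 in HCT116. MER50-int, an ERV1 internal part counted at 1 locus, was at -0.44 and 1.32. MER61A, an ERV1 LTR, was at 0.14 and -0.21, and its leading locus was lower in both treated libraries. Without that locus MER61A was above 0 in both lines, at 4.02 and 0.16. Locus 680615, with 603 and 96 counts in HCT116, was lower there too. The sign in HCT116 thus depends on which copies are counted and not on the leading one alone. With 1 library per combination the difference between the lines was not tested.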

How the results depend on the processing

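No paired analysis was possible because each line had 1 library per treatment. A fit with the line as a block, which would use the lines as replicates of the treatment, was not run. The total MER log2 ratio stayed above 0 in both lines under every alternative run. In H1299 it was 1.07 over all listed classes and 0.67 over classes listed in all 4 libraries. In HCT116 it was 1.84 and 1.25 over these, 1.54 without the 5% of cells with most counts, 1.36 without cells above 25% mitochondrial counts, 1.79 as a mean over cells and 1.71 without the leading locus. MER66C in HCT116 was 5.77 without its leading locus. The difference between the lines stayed below 0, at -0.43 without cells above 25% mitochondrial counts, -0.89 as a mean over cells, -0.77 without the leading locus and -0.94 over classes listed in both libraries of each line.

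The repeat group alternatives were chosen after seeing the data. Without the leading locus, ERV1 names were at 0.95 in H1299 and 2.05 in HCT116 and DNA transposon names at 0.88 in HCT116. Without cells above 25% mitochondrial counts, HCT116 ERV1 names were at 1.99 and DNA transposon names at 0.28.

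At 2-fold, 7 of 29 classes and 6 of 25 families were higher in H1299 (26.6% and 27.8% of all TE names) and 19 of 32 and 21 of 30 in HCT116 (62.6% and 62.4%). With at least 500 counts it was 1 of 12 and 1 of 10 in H1299 (30.9% and 31.7%) and 5 of 12 and 5 of 13 in HCT116 (59.6% and 57.3%). Without each one's leading locus, 10 of 17 classes and 7 of 14 families were at least 4-fold higher in H1299 (32.5% and 33.3%), and over all listed classes 7 of 31 families in H1299 (22.6%) and 16 of 38 in HCT116 (46.7%). Over classes listed in all 4 libraries, loci with a count were 1208 with DMSO and 1478 after treatment in H1299, and 1029 and 2148 in HCT116. The share of cells with a MER count was then 38.8% and 55.0% in H1299 and 41.0% and 62.3% in HCT116, DMSO first, without thinning 95.1%, 99.0%, 93.7% and 95.7%, and over classes listed in both libraries of the line, chosen after seeing the data, 47.6%, 62.2%, 46.2% and 72.8%.

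Of the named family ratios, 6 changed sign without the leading locus, with MER2B in H1299 at -0.11, MER106B at 0.25, MER106A at 0.0058, and in HCT116 MER44B at 0.93, MER61A at 0.16 and MER5A1 at 0.76. Over all listed classes MER44B was at 0.13. In these families leaving out 1 locus changed the sign by the construction of the alternative, and in MER61A other loci were lower in HCT116 too. For the other values that moved, the cause was not tested. Depth limits families near 20 counts and the HCT116 DAC+SB cells left out by thinning.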
